A study of Mus musculus with 282 samples.

Results

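Granulocyte-monocyte progenitors (GMPs) exposed to tumour necrosis factor (TNF) were compared with GMPs given no cytokine, which the authors' cell tables call blank. The cells were chosen by those tables alone: every listed cell of both experiments entered, whatever its response class, and its stimulus was read from the table. They number 238 of the 282 cells in the series, 178 with TNF and 60 blank. One experiment filled 1 plate (51 TNF and 16 blank cells), and the other filled 2 plates, Plate1 (59 and 24) and Plate2 (68 and 20). All cells, the blank ones included, came from bone marrow of male and female mice aged 12 to 19 weeks that were homozygous for GFP-p65 and heterozygous for H2BmCherry, and all were kept in culture for 8 h on a confocal microscope before single cells were picked for Smart-Seq2, a full-length RNA-seq method without molecular identifiers. The sources used here do not give the TNF dose, the mouse and sex behind each cell, or the number of mice.

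GMPs are committed bone marrow cells that give rise to neutrophils and monocytes. TNF is an inflammatory cytokine that binds receptors on the cell surface and, through degradation of IκB inhibitors, lets NF-κB dimers that contain p65 enter the nucleus and switch on target genes. The GFP-p65 fusion makes that movement visible, and the H2B-mCherry fusion marks the nucleus. In the authors' tables TNF cells were mostly transient (25 of 51 and 51 of 127 cells in the 1-plate and 2-plate experiments) or oscillatory (20 and 36), while blank cells were mostly non-responsive (13 of 16 and 34 of 44).

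The deposited counts identify genes by Ensembl number, and 0 of the 55450 numbers could be paired with a symbol here. Genes are therefore described by their number, level and spread over cells, and the labelled cell type was not checked against marker genes. Cells held 182301 to 3380416 reads in genes. The median TNF cell had 881751 reads in the 1-plate experiment, 1951612 on Plate1 and 1350584 on Plate2, and the median blank cell 924446, 1693212 and 1998587. Fewer than 8000 genes were detected in 28 cells, of which 26 were on Plate2, 24 of them with TNF. The 50 most abundant genes took up to 86.3% of the reads of a TNF cell on that plate. In the 1-plate experiment the TNF cells came from microscope positions 1 to 16 and the blank cells from positions 17 to 24, so stimulus and position cannot be told apart there. Counted column by column, wells also split by stimulus on every plate. TNF wells ended at F8 in the 1-plate experiment and at H9 on Plate1, and blank wells began at A9 and A10. On Plate2 blank wells ended at A4 and TNF wells began at B4. Stimulus and well order thus cannot be told apart on any plate.

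Far more genes rose with TNF than fell, and the rises were larger. Of 8619 genes tested, 250 rose (2.9%) and 48 fell (0.557%), which together is 3.46% of the genes tested. The test was edgeR's quasi-likelihood test on reads summed per experiment and stimulus, with the experiment as a term and a Benjamini-Hochberg adjusted p below 0.05. Rises had a median log2 fold change of 1.65 and a range of 0.66 to 7.99, and falls a median of -1.23 and a range of -5.52 to -0.72. The median was -0.0084 over all genes tested. At least a 2-fold change was reached by 216 of the 250 and 31 of the 48, at least 4-fold by 87 and 6, and at least 8-fold by 38 and 2.

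The median size of the rises was alike from plate to plate, over genes that the reads of these same plates had chosen. Across the 250 genes the median log2 fold change was 1.67 for the 1-plate experiment, 1.58 for Plate1 and 1.53 for Plate2. For the 48 genes that fell it was -1.35, -0.98 and -1.22. The sign was the same on all 3 plates for 247 of the 250 and 45 of the 48, against 37.7% of all genes tested, but these plates also entered the test that chose the genes. Over all 8619 genes the log2 fold changes of the 2 experiments, which share no cells, had a Pearson correlation of 0.596 and a Spearman correlation of 0.35 across genes, which are not independent replicates. Between Plate1 and Plate2 the same correlations were 0.492 and 0.275.

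**Figure D1:**
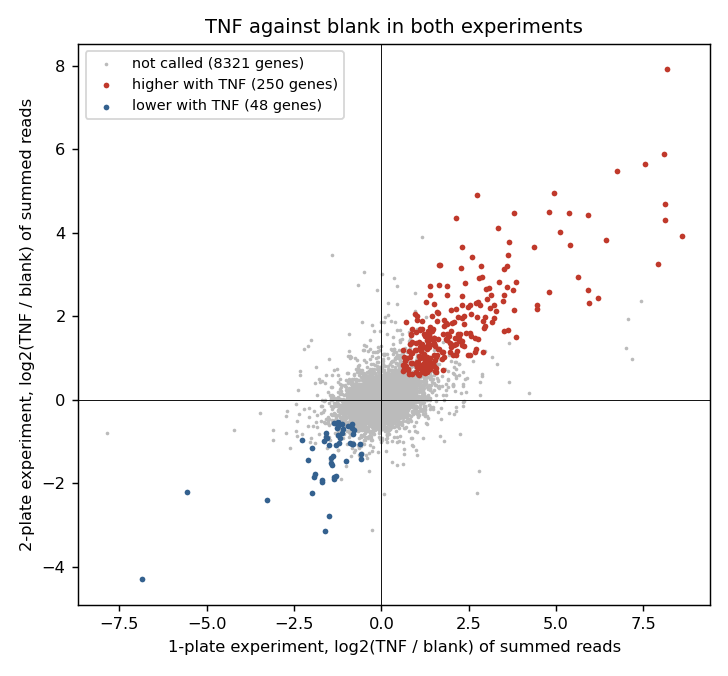
Log2 ratio of summed reads, TNF over blank, in the 1-plate experiment (x axis) and the 2-plate experiment (y axis); each point is 1 of 8619 genes, red for the 250 that rose, blue for the 48 that fell and grey for the rest. The red points reach far from the origin along both axes, while most blue points lie within a few log2 units of it.

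The experiment is the replicate here (n = 2), with 1 residual degree of freedom. The number of calls changed with the settings. The 250 and 48 became 64 and 5 with edgeR's default low-count filter, which tests 15479 genes, 405 and 125 with DESeq2, 98 and 10 with limma on cell means of log2(CPM + 1), where CPM is a gene's reads per 1000000 reads in genes, and 0 and 0 either without the experiment term or with spike-in scaling. Without the 28 cells of few detected genes they were 347 and 114, without Plate2 415 and 145, and without the 1-plate experiment 162 and 10. All 298 genes kept their sign in each of these settings except limma, where 296 did. All 250 and all 48 had the same sign in both experiments when called, so these refits had little room to change it.

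Of the 250 genes that rose, 167 also had a larger share of TNF than of blank cells with a read in both experiments, against 7.01% of all genes tested. Reads of these same cells chose the 250 genes, so their shares and levels by stimulus are no separate support. The median gene of the 250 stood at 79.8 CPM with TNF and 22.2 blank in the 1-plate experiment, and at 83.2 and 28.6 CPM in the 2-plate experiment. A read of the median gene was found in 92.2% of TNF cells and 68.75% of blank cells in the 1-plate experiment, and in 89.4% and 79.5% in the 2-plate experiment. The median over all genes tested was 98.0% and 93.75% in the first and 89.8% and 97.7% in the second. With each cell thinned to 400000 reads, which leaves out 21 shallower cells, the medians were 91.7% and 60% in the 1-plate experiment and 89.7% and 73.8% in the 2-plate experiment.

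The genes that rose ranged from nearly silent to ubiquitous in blank cells. Of the 250, 16 had a read in fewer than 20% of blank cells in both experiments, and their median log2 fold change was 4.48. Among all genes tested 30 were so rarely read in blank cells, with a median of 2.70. A gene that low in blank cells passes the filter mainly where TNF is high, so large rises there were partly set in advance. Another 95 of the 250 had a read in more than 80% of blank cells in both experiments, and their median was 1.10. Among all genes tested 6707 did, with a median of -0.027. The other 139 lay between. Blank cells of the 1-plate experiment had 0 reads of 4 of the 250 genes, and blank cells of the 2-plate experiment had reads of all of them; fitted fold changes of genes with so few reads depend on the prior count. With TNF, 159 of the 250 were read in more than 80% of cells in both experiments, and 14 were read in fewer than 50% in both. Among all 8619 genes tested these counts were 6332 and 125, so the genes that rose were less widely read with TNF than tested genes in general.

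The median of the 48 genes that fell was read in 80.4% of TNF and 87.5% of blank cells of the 1-plate experiment, and in 75.6% and 94.3% in the 2-plate experiment. After thinning these were 79.2% and 80%, and 75% and 92.9%. The share of cells with a read was lower with TNF in both experiments for 28 of the 48, against 14.9% of all genes tested. Here too reads of the same cells chose the genes. The median gene of the 48 stood at 46.7 CPM with TNF and 133 CPM blank in the 1-plate experiment, and at 35.4 and 94.5 CPM in the 2-plate experiment.

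**Figure D2:**
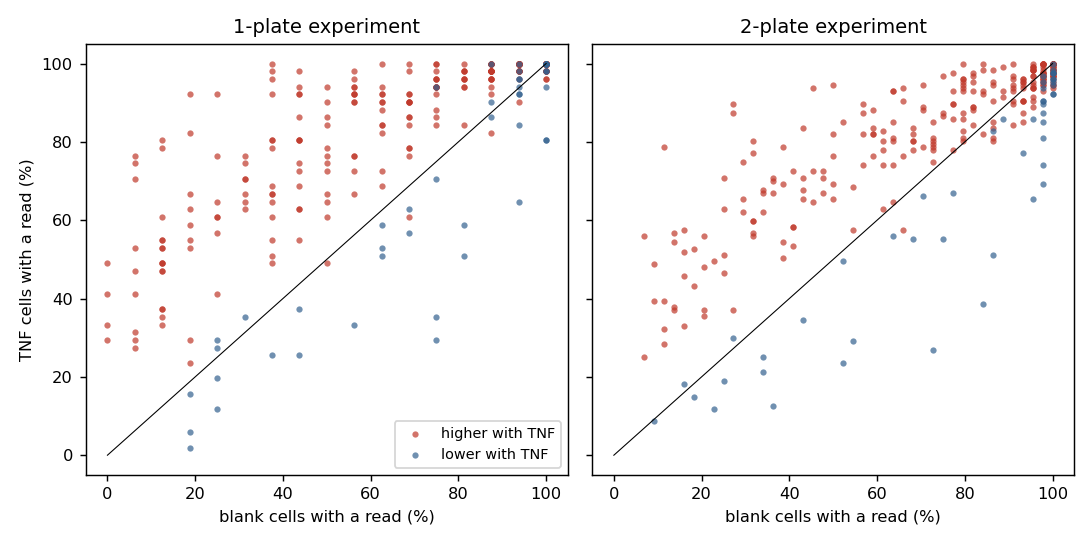
Percent of blank cells (x axis) and TNF cells (y axis) with at least 1 read of each gene that rose (red, 250) or fell (blue, 48), in each experiment; the line marks equal shares. Red points lie mainly above the line, from genes read in few blank cells to genes read in nearly all of them, and blue points lie mainly on or below it.

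Among genes that changed in the same direction on all 3 plates and were read in at least 20% of the cells of the higher group in both experiments, ENSMUSG00000022126 had the largest rise. In the 1-plate experiment its summed reads gave 90.3 CPM with TNF and 0.263 CPM blank. Plate1 gave 170 and 0.498 CPM, and Plate2 gave 418 and 9.63 CPM. TNF was above blank on each plate, as the choice of gene required, and the lowest TNF plate lay above the highest blank plate. Within the experiments the log2 fold change was 8.10 (1-plate) and 5.88 (2-plate). The log2 fold change was 6.38 ± 0.41 (SE; 2 experiments; adjusted p = 0.00040, edgeR).

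Single TNF cells differed widely in this gene. TNF cells of the 1-plate experiment ran from 0 to 1309 CPM with a median of 1.66, and blank cells from 0 to 3.43 with a median of 0. On Plate1 TNF cells ran from 0 to 2731 CPM (median 10.7) and blank cells from 0 to 8.81, and on Plate2 from 0 to 3957 (median 51.4) and 0 to 118. Most blank cells had no read, while TNF cells covered the whole range from none to the values at the top. A read was found in 27 of 51 TNF cells (52.9%, exact 95% interval 38.5 to 67.1%) and 2 of 16 blank cells (12.5%, 1.55 to 38.3%) of the 1-plate experiment. In the 2-plate experiment it was found in 100 of 127 (78.7%, 70.6 to 85.5%) and 5 of 44 (11.4%, 3.79 to 24.6%). These intervals cover counting error only.

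ENSMUSG00000026981 had the second largest rise, at 6.07 ± 0.57 (SE; 2 experiments; adjusted p = 0.0020, edgeR). Within the experiments the rise was 7.53 (1-plate, where it depends on the prior count) and 5.65 (2-plate). The level of this gene was 12.2 CPM with TNF in the 1-plate experiment against 0 reads in blank cells, at least 62.1-fold higher when the blank sum is set to 3 reads. Plate1 gave 26.5 CPM with TNF and 2.41 CPM blank. Plate2 gave 92.8 CPM with TNF against 0 blank reads, at least 1204-fold higher on the same floor, though 1 cell held 64.4% of those TNF reads. TNF exceeded blank on every plate, as the choice of gene required, and the TNF and blank plates did not overlap. The adjusted p was not below 0.05 when the sums were made per plate, in G1 cells alone, or without the 1-plate experiment.

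About as many TNF cells had a read of this gene in each experiment, 25 of 51 (49.02%, 34.8 to 63.4%) and 71 of 127 (55.9%, 46.8 to 64.7%). Blank cells with a read numbered 0 of 16, which allows a share of up to 18.75% on a floor of 3 cells (exact upper limit 20.6%), and 3 of 44 (6.82%, 1.43 to 18.7%). Both genes were read together in 17 of 51 and 62 of 127 TNF cells, while 0 blank cells had both. Neither was read in 16 of 51 and 18 of 127 TNF cells, so some TNF cells carried no detected read of either one.

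Among genes that passed the same rule of direction and share of cells, the 2 largest falls were carried by few cells. Falls outside that rule reached -5.52. ENSMUSG00000022157 stood at 31.3 CPM with TNF and 1478 CPM blank in the 1-plate experiment, 53.8 and 87.6 CPM on Plate1, and 17.5 and 281 CPM on Plate2. Blank was above TNF on every plate, as the choice of gene required, but 1 blank cell held 80.6%, 85.7% and 90.6% of the blank reads of the 3 plates. The log2 fold change was -3.88 ± 0.74 (SE; 2 experiments; adjusted p = 0.032, edgeR). Within the experiments it was -5.56 (1-plate) and -2.20 (2-plate). A read of this gene was found in 15 of 51 TNF and 12 of 16 blank cells of the 1-plate experiment, but in 63 of 127 and 23 of 44 in the 2-plate experiment, nearly the same share. Its adjusted p was below 0.05 in only 6 of 16 other settings and missed it, among others, on removal of the highest cell of each sum, and in G1 cells alone the sign was reversed, at 2.68.

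ENSMUSG00000015647 stood at 8.78 CPM with TNF and 85.6 CPM blank in the 1-plate experiment, 3.88 and 21.2 CPM on Plate1, and 7.43 and 40.8 CPM on Plate2. Every TNF plate lay below every blank plate, though the choice of gene already required this order within each plate. The log2 fold change was -2.84 ± 0.31 (SE; 2 experiments; adjusted p = 0.0029, edgeR), and in G1 cells alone it was 0.90. Within the experiments, over all phases, it was -3.28 (1-plate) and -2.40 (2-plate). One blank cell held 56.8%, 86.1% and 54.3% of the blank reads of the 3 plates. The same blank cells carried both genes that fell. In the 1-plate experiment and on Plate2, the same 2 blank cells lay above every TNF cell of their plate for both genes. On Plate1 the same blank cell, of the outlier class, was the highest blank cell for both, at 3480 CPM of ENSMUSG00000022157 and 845 CPM of ENSMUSG00000015647. The 2 falls are thus not separate observations. Cells with a read were 13 of 51 TNF and 6 of 16 blank in the 1-plate experiment. In the 2-plate experiment they were 32 of 127 TNF and 15 of 44 blank. The 1-plate order was reversed for cells with at least 5 reads, at 11 of 51 TNF and 3 of 16 blank. It was also reversed after thinning, at 12 of 48 and 3 of 15. The 2-plate order held, at 20 of 127 TNF and 10 of 44 blank with at least 5 reads. After thinning it was 23 of 112 and 13 of 42. On cell means, limma gave a log2 fold change of -0.61, with an adjusted p not below 0.05.

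**Figure D3:**
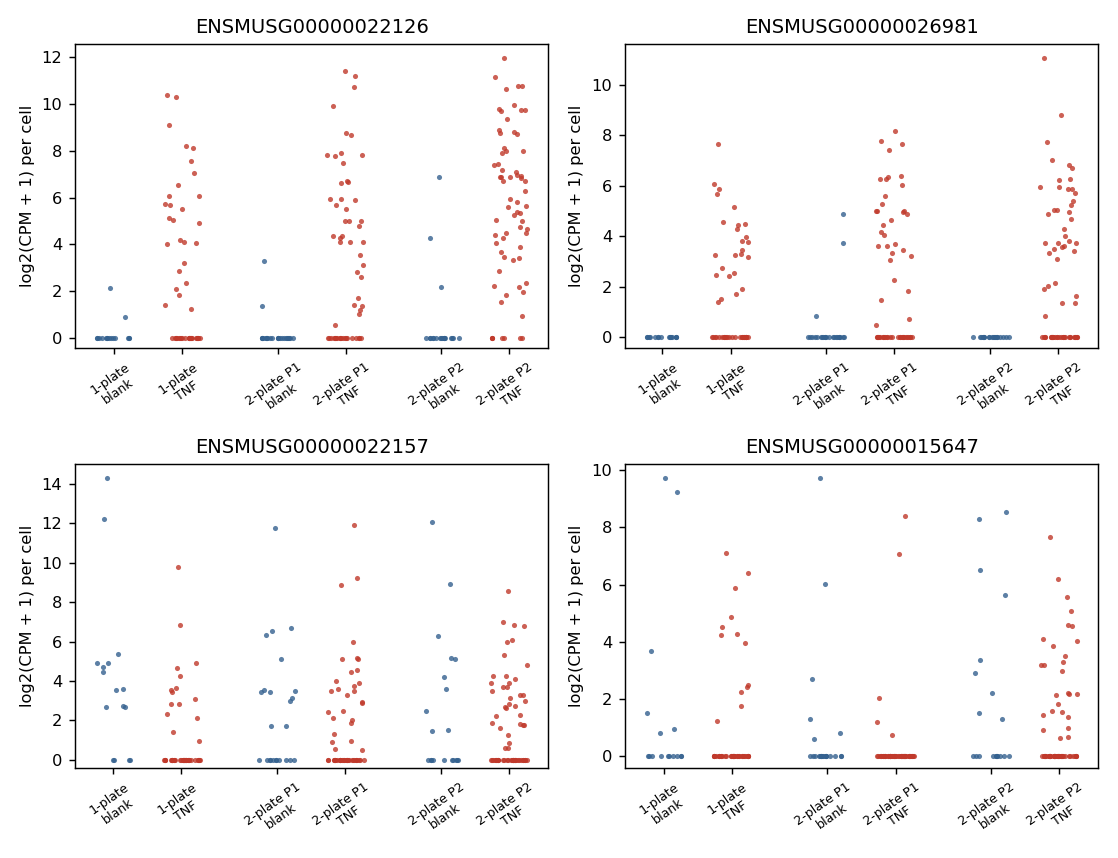
Level of 4 genes in every cell as log2(CPM + 1), by plate (P1 and P2 are Plate1 and Plate2) and stimulus, with TNF in red and blank in blue; points at 0 are cells with no read, and each panel has its own y axis. For the upper genes many TNF cells and few blank cells lie above 0, and for the lower genes the blank sums rest on a few cells at the top.

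The dependence on single cells held for the genes that fell more than for those that rose. The highest cell held a median of 12.2% (1-plate experiment) and 5.84% (2-plate experiment) of the TNF reads of a gene that rose. For a gene that fell, the highest cell held a median of 29.1% and 15.4% of the blank reads. In at least 1 experiment, 1 cell held more than 50% of the reads for 4 of the 250 genes and 19 of the 48. These shares were not computed for genes outside the 298, so no rate over all genes tested stands beside them. The blank groups hold fewer cells, 16 and 44 against 51 and 127, which raises the share of any 1 cell. When the highest cell of each gene was taken out of every sum, which was tried only once the data had been seen, the test gave 330 rises and 65 falls, and 286 of the 298 were still called. Taking out 1 cell removes a larger part of the smaller blank groups. These counts therefore cannot show how far the calls depend on single cells.

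**Figure D4:**
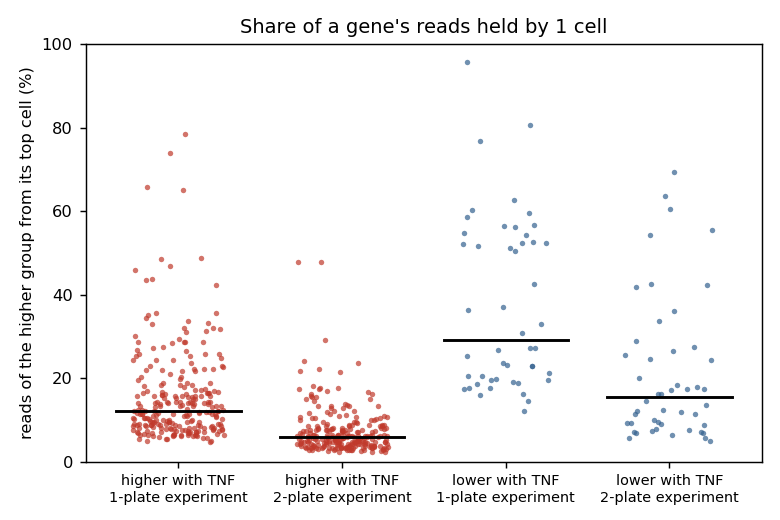
Percent of a gene's reads in the higher group (TNF for genes that rose, blank for genes that fell) that came from its highest cell, for each called gene and experiment; the black line is the median. The medians are 12.2% and 5.84% for the genes that rose and 29.1% and 15.4% for those that fell, and the blank groups hold fewer cells.

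Lists of the 50 largest rises and falls in 1 experiment were then read in the other. When both the low-count filter and the choice used the choosing experiment alone (at least 10 CPM in 1 of its sums and a read in at least 20% of its higher group), the rises carried over to nearly all genes. Of the 50 largest rises in the 1-plate experiment 45 were higher with TNF in the 2-plate experiment, with a median log2 fold change of 2.77, and 42 exceeded 2-fold. Of all genes so filtered, 50.5% were higher and 4.09% exceeded 2-fold. Of the 50 chosen in the 2-plate experiment 49 were higher in the 1-plate experiment, with a median of 3.55, and 45 exceeded 2-fold, against 50.7% and 6.12%. The falls carried over less fully. Of the 50 largest falls in the 1-plate experiment 32 were lower in the 2-plate experiment, with a median of -0.33, and 9 exceeded 2-fold, against 49.9% and 1.01% of all such genes. Of the 50 chosen in the 2-plate experiment 38 were lower in the 1-plate experiment, with a median of -0.69, and 22 exceeded 2-fold, against 49.5% and 2.81%.

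The lists below were drawn from the 8619 tested genes, a filter that uses both experiments: a gene that is low in both blank sums passes it only if TNF is high in both, so its direction in the other experiment was set in advance. With these lists all 50 rises had the same direction in the other experiment both ways, and 38 and 40 of the 50 falls did. The 38 falls from the 1-plate experiment came with 35 of 50 on Plate1 but 29 of 50 on Plate2, where the median was -0.26 and 50.4% of all such genes were lower.

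These genes, each list chosen in the other experiment, were followed cell by cell, as the mean log2(CPM + 1) over the 50 genes. For the rises the median level of TNF cells was 2.72 in the 1-plate experiment, 3.92 on Plate1 and 3.04 on Plate2, and that of blank cells 0.77, 1.23 and 1.73. The median TNF cell had reads of 29, 35 and 31 of the 50 genes on the 3 plates, and the median blank cell of 11.5, 16 and 23. Plate2, with the most cells of few detected genes, had the smallest gap, at 1.31. In cells with at least 8000 detected genes its medians were 3.75 and 1.99. With lists filtered in the choosing experiment alone, TNF and blank medians were 2.42 and 0.83, 3.22 and 1.02, and 2.60 and 1.32.

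The TNF cells formed a wide range that began among the blank cells. The level in TNF cells ran from 0.77 to 6.37 in the 1-plate experiment, from 1.18 to 6.19 on Plate1 and from 1.09 to 6.66 on Plate2. Its SD over TNF cells was 1.43, 1.34 and 1.40, and over blank cells 0.54, 0.68 and 0.85. Above the highest blank cell of their plate were 27 of 51, 37 of 59 and 26 of 68 TNF cells, and 28 of 48, 37 of 58 and 24 of 54 after thinning to 400000 reads. With lists filtered in the choosing experiment alone the counts were 24, 36 and 23. Below the median blank cell were 1, 1 and 6 TNF cells. The groups thus overlapped on every plate, with 0 of 16, 0 of 24 and 1 of 20 blank cells above the TNF median.

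For the falls, the median level was 2.56 in TNF and 3.18 in blank cells of the 1-plate experiment, 2.27 and 3.01 on Plate1, and 2.53 and 3.21 on Plate2. The gap was smaller than for the rises on each plate, and the groups overlapped more. No TNF cell exceeded the highest blank cell, and 16 of 59 TNF cells on Plate1 but 0 on the other plates lay below the lowest blank cell. After thinning these were 15 of 58 on Plate1, 7 of 54 on Plate2 and 0 of 48 in the 1-plate experiment. In cells with at least 8000 detected genes the Plate2 medians were 2.89 and 3.24, so the gap went from -0.67 to -0.36. With lists filtered in the choosing experiment alone the gap was -0.67 in the 1-plate experiment, -0.34 on Plate1 and -0.29 on Plate2.

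**Figure D5:**
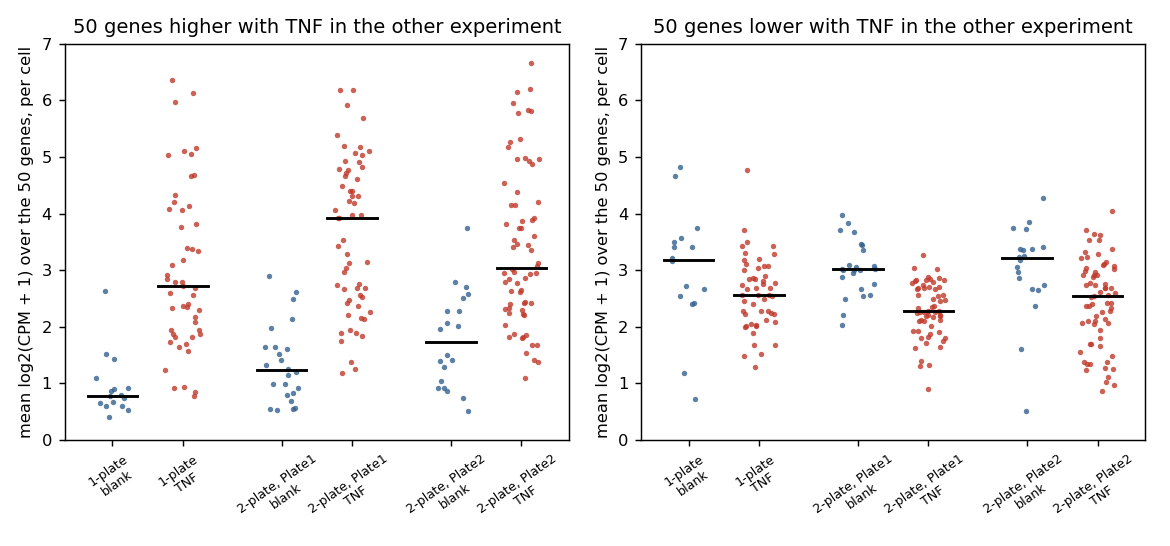
Mean log2(CPM + 1) per cell over the 50 of 8619 tested genes that rose (left) or fell (right) most with TNF in the experiment the cell is not part of, by plate and stimulus; points are cells, TNF in red and blank in blue, and the black line is the median. TNF medians of 2.72, 3.92 and 3.04 lie above blank medians of 0.77, 1.23 and 1.73 on the left, and on the right TNF medians lie lower with more overlap.

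The same 50-gene level was higher with TNF in each cell cycle phase of the authors' tables. Its lists came from the filter that uses both experiments, so part of this direction was set in advance. Lists filtered in the choosing experiment alone were not read by phase or response class. In the 1-plate experiment the median level in TNF and blank cells was 2.78 and 0.85 in G1 (9 and 3 cells), 2.25 and 0.74 in S (12 and 3 cells) and 2.999 and 0.77 in G2M (30 and 10 cells). In the 2-plate experiment it was 3.75 and 1.15 in G1 (41 and 14 cells), 2.86 and 1.14 in S (23 and 5 cells) and 3.53 and 1.52 in G2M (63 and 25 cells). S-phase TNF cells had the lowest of the 3 TNF medians in both experiments, and whether phases differ was not tested. Tested gene by gene, S and G2M cells gave 163 genes higher and 28 lower, while the fewer G1 cells gave 3 and 0. In G1 cells 372 of the 8619 genes had an unadjusted p below 0.05 in edgeR, against 1231 in the test of all cells. Of the 298 genes, 279 had the same sign in G1 cells, but these cells were part of the sums that chose the 298.

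Among TNF cells the level also differed by response class. Oscillatory TNF cells had medians of 4.10 and 4.56 in the 1-plate and 2-plate experiments, and transient ones 2.34 and 2.78. TNF cells that the authors called non-responsive had medians of 2.78 (3 cells) and 3.08 (18 cells), above the 0.74 (13 cells) and 1.40 (34 cells) of non-responsive blank cells. The filter behind these lists uses both experiments, so part of that gap between TNF and blank was set in advance. These values describe cells of the 2 experiments and were not tested.

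The fold changes above are relative to the reads of each sum. Gene reads per spike-in read, a measure of RNA per cell, had TNF medians of 915 in the 1-plate experiment, 86.8 on Plate1 and 56.2 on Plate2, and blank medians of 664, 91.9 and 74.3, so the ratio of TNF to blank was 1.38, 0.945 and 0.757. Scaling the sums by spike-ins moved the median log2 fold change of all genes from -0.0084 to 0.36. No gene was then called by edgeR and 42 had an unadjusted p below 0.05. All 298 genes kept their sign, which the calls themselves left little room to change.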

How the data were processed

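The deposited count tables hold whole-read counts per Ensembl gene and cell. SAMtools, featureCounts and Subread 1.5.0 appear in the submitters' processing notes. The sources used here give no genome build, annotation, strand setting or aligner settings, so overlapping, antisense and near-identical genes were not told apart. The authors' deposited cell tables give stimulus, response class, phase and phase scores as a fraction; the sources used here do not say how. Columns were tied to samples by well and plate. Not compared were 357 columns that match no sample and the 44 samples that the cell tables do not list. The 92 spike-ins stayed out of library sizes.

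Counts were summed over cells per experiment and stimulus (4 sums of 15208545 to 200524120 reads). Genes with at least 10 CPM in at least 2 sums were tested with edgeR 4.0.16 in R 4.3.3 (TMM factors, experiment term, two-sided, adjusted p 0.05; 1 residual and 6.78 prior degrees of freedom). The SE is the absolute log2 fold change over the square root of F. With 6.78 prior against 1 residual degrees of freedom, the variance behind each p-value and SE was mostly borrowed from other genes. Neither therefore measures a single gene's own spread between the experiments. Whether the experiments used different animals is not stated in the labels, so that spread may be technical. The fit was also run on simulated counts of whole sums, not of single cells, so that run does not cover sums that 1 cell dominates. Its outcome is not given here. Alternatives used DESeq2 1.42.0, limma 3.58.1 (pseudocount 1), other filters, scalings and cells. Cells were checked for identical columns (0 pairs).

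Gene lists, cell type markers and the mitochondrial share were set by symbol and were not analysed here, since no identifier matched the reference gene table. The same holds for the part of the naming rule that leaves out predicted and sex-linked genes. Named genes are the 2 largest rises and 2 largest falls among called genes with the same direction on all 3 plates and a read in at least 20% of cells of the higher group in both experiments. The cells, lists and tests were chosen with earlier results of these data known. The filter of the choosing experiment alone was added after seeing the data. Shares have exact Clopper-Pearson 95% intervals, and bounds use a floor of 3 reads per group of cells.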

Additional observations from a re-analysis of the deposited data

Results flagged for a closer look

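The ratio of gene reads to spike-in reads moved in opposite directions in the 2 experiments. Its log2 ratio of TNF over blank was 0.46 in the 1-plate experiment, -0.082 on Plate1 and -0.40 on Plate2, both from the 2-plate experiment. The difference was not tested. In cells with at least 8000 detected genes, a check added after seeing the data, the values were 0.38, -0.082 and 0.029.

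Of the 29 samples of the 1-plate experiment outside the cell tables, 5 had a level of the 50 genes above 2.63, the highest blank cell of that plate. Their highest value was 5.41. All 5 were among the 18 with at least 100000 reads. Of the 15 such samples of the 2-plate experiment, 0 lay above the highest blank cell of that experiment, at 3.74. The sources used here do not give their stimulus.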

How the results depend on the processing

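The 250 genes higher and 48 lower with TNF became 64 and 5 with the default low-count filter, 405 and 125 with DESeq2, 98 and 10 with limma on cell means, 3 and 0 in G1 cells, 163 and 28 in S and G2M cells, 415 and 145 without Plate2, 162 and 10 without the 1-plate experiment, and 0 and 0 both with spike-in factors and without the experiment term (457 genes at an unadjusted p below 0.05 in edgeR). Cells with at least 8000 detected genes gave 347 and 114. The cause was not tested. The other settings stayed within 1.5 times both counts: no filter (307 and 60), relative log expression factors, sums per plate, thinned cells, without Plate1, and without the highest cell. Without the 2-plate experiment no test was possible, and all 298 genes kept their sign, as each already had the same sign in both experiments. No filter moved the median log2 fold change of all genes to 0.22, and limma moved it to -0.17. In G1 cells ENSMUSG00000022157 was at 2.68 and ENSMUSG00000015647 at 0.90, on the other side of 0. Adjusted p-values passed 0.05 in 13, 11, 6 and 12 of 16 alternatives for ENSMUSG00000022126, ENSMUSG00000026981, ENSMUSG00000022157 and ENSMUSG00000015647. The Plate2 spike-in log2 ratio turned from -0.40 to 0.029 in cells with at least 8000 detected genes. With the low-count filter of the choosing experiment alone, 90% of the rises chosen in the 1-plate experiment were higher in the other, not 100%. Shares for lists of 25 or 100 genes and gaps in cell level after thinning kept their direction. Counting only cells with 5 or more reads kept 12 of 16 shares within their intervals. Alternatives for gene list counts were not run. Between single cells, no paired analysis was possible because cell numbers tie no TNF cell to a blank cell; the sums are paired by the experiment term of the test itself. Reads without molecular identifiers and 2 experiments limit precision.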
